A study of Mus musculus with 8 samples.

Results

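The 300 regions described here carried the highest density of acetylated lysine 9 of histone H3 (H3K9ac) in the ileal epithelium of mice. They were chosen by a rule on the measured values: of the 10978 regions shorter than 5000 bp in the deposited table, the 300 with the highest mean RPKM over 6 H3K9ac libraries were taken, which is 2.73% of the regions under that length and 300 of 11251 in all. RPKM divides the reads of a region by its length in kilobases and by the size of the library, so it is a level per length. It was not set against input, so differences in copy number or mappability between regions, Efcab2 included, are not removed from it. The density therefore describes how the members were chosen and was not tested. The contrast between treatments was not part of the rule.

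The study used wild-type C57Bl/6 mice and compared histone acetylation in their intestinal epithelial cells with and without butyrate. In the first group, mice received 150 mM butyrate for 7 days, and the second group received vehicle. Each group had 3 H3K9ac libraries from intestinal epithelial cells of the terminal ileum, and 1 input library per treatment was not analysed here. The labels do not say whether a library came from 1 mouse, several mice or a repeat preparation, and a p-value below sets a difference only against how much these libraries varied, which can include technical variation. Reads in regions numbered 1255251 to 1596958 per library with butyrate and 1261630 to 1828591 with vehicle. Of 9 epithelial marker genes, 9 had a region, and of 13 absorptive enterocyte markers 12 did. Immune markers had 2 of 11, with Laptm5 the densest at 1.29 RPKM. Fibroblast markers had 1 of 7, endothelial markers 1 of 5 and smooth muscle markers 0 of 3. Markers of other epithelial cells were as sparse, with goblet 1 of 5, tuft 1 of 3, and Paneth, enteroendocrine and stem 0 of 3 each. A missing region therefore does not show that a cell type was absent. No marker of any cell type was among the 300.

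Acetylation of H3K9 neutralises the charge of the histone tail and is found on the nucleosomes that flank active transcription start sites (TSS). Acetyltransferases such as p300 and GCN5 place acetyl groups on histone tails and histone deacetylases remove them. Butyrate, which gut bacteria make from fibre, enters epithelial cells as a fuel and inhibits many deacetylases. Many mammalian promoters lie in CpG islands, stretches in which the dinucleotide CpG has been retained, and such promoters are often active in many tissues.

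The densest region lay at Efcab2, which encodes an EF-hand protein of the ciliary dynein regulatory complex, and it stood apart from the other members. It spanned chr1:178405412-178407072 in the coordinates of the table (build mm10), 1660 bp over the TSS and into an intron, and averaged 17.7 RPKM. The next region averaged 13.0 RPKM at chr1:88275978-88278241. The table names it A730008H23Rik, and the TSS of Hjurp, the chaperone that deposits the centromeric histone CENP-A, lies inside it. Tlk2, a kinase of histone chaperones, followed with 12.4 RPKM at chr11:105180415-105183224. Sequences of these 3 regions are shown because they carry the highest levels of the mark. For Efcab2 the 300 bases at the centre of the region are given (chr1:178406093-178406392, plus strand), read from the GRCm38.p6 genome, which is the mm10 assembly. For Hjurp (chr1:88277530-88277829, minus strand) and Tlk2 (chr11:105181277-105181576, plus strand) the RefSeq promoter window of the same build is given, from 250 bases before to 50 after the start. Capitals mark matches on either strand to a GC box, CCAAT box, ETS core, cyclic AMP response element (CRE) or its short form, NRF1, YY1, E-box or TATA box motif, whose letters are given further on.
Efcab2: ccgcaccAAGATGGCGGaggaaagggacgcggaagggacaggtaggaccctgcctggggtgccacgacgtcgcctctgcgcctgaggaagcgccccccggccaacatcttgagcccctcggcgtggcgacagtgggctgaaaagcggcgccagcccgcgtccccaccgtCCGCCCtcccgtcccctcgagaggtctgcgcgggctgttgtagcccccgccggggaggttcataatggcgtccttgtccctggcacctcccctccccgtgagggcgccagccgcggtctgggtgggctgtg
Hjurp: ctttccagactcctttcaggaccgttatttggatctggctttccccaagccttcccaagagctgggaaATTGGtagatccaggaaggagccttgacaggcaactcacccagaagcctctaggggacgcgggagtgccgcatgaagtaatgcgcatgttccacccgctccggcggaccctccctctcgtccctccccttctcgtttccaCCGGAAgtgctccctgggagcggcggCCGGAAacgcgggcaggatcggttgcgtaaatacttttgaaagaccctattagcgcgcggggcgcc
Tlk2: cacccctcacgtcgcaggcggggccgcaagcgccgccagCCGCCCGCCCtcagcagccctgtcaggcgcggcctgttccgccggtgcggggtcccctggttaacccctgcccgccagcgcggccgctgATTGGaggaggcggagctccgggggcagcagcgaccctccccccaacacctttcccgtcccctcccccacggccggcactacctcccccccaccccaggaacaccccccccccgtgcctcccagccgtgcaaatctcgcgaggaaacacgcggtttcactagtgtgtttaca
The Efcab2 stretch was 71.3% G and C with 30 CpG dinucleotides, the Tlk2 window 72.3% with 29, and the Hjurp window 59.7% with 22. Among the searched motifs Efcab2 held 1 YY1 match and 1 GC box, Tlk2 held 2 GC boxes and 1 CCAAT box, and Hjurp held 2 ETS cores and 1 CCAAT box.

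A dense member without such CpG content lay at Mir194-1, chr1:185311462-185314900. It had 1.57 CpG per 100 bp, the lowest of the 300. The region covers the hairpins of Mir194-1 and Mir215, microRNA genes whose products are abundant in intestinal epithelium, and no start of a protein-coding gene. The mature microRNAs from the RefSeq table (GRCm38.p6) are shown because they identify the transcript, with the seed, bases 2 to 8, in capitals. The seeds of miR-194-5p (chr1:185313325-185313346) and miR-215-5p (chr1:185313610-185313630), both on the plus strand, differ.
miR-194-5p: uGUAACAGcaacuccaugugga
miR-215-5p: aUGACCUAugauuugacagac
The Mir194-1 region was the 30th in density. It had 8.09, 9.06 and 9.39 RPKM with butyrate, against 8.84, 9.36 and 9.06 RPKM with vehicle, and the groups overlapped.

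Density fell off quickly among the members. It exceeded 10 RPKM in 13 members and 8 RPKM in 78, and 104 members had 7 RPKM or less. The median was 7.27 RPKM, against 3.02 RPKM in the other regions under 5000 bp. At the lower end there was no gap. The last members were Xrn1, the main cytoplasmic 5′-to-3′ exonuclease, Eif3d, a subunit of a translation initiation factor, Pias1, a SUMO ligase, Krcc1, and a region named H2-L, all with 6.51 or 6.52 RPKM. The first regions outside were Atp2b1 and Tnrc6c with 6.50 RPKM, and Hnrnpa0, Nfyc and Foxo3 with 6.49 RPKM. Within 0.25 RPKM of the limit lay 62 members, so a region near it is a member by a margin smaller than the spread between libraries.

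**Figure D1:**
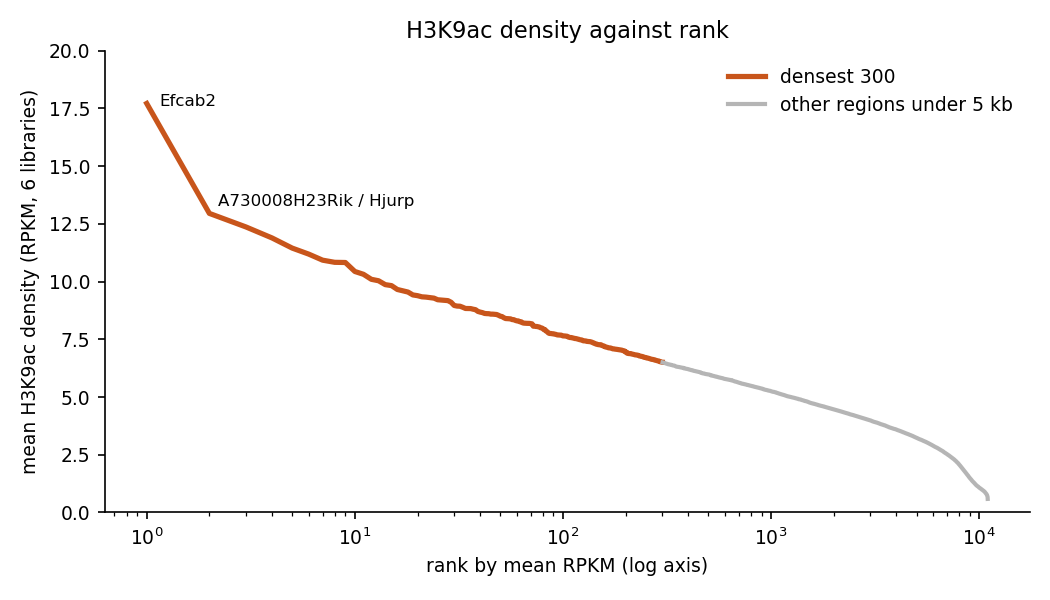
Mean H3K9ac density in RPKM over the 6 libraries (y axis) against the rank of each region under 5000 bp (x axis, log). The orange stretch, the 300 densest, runs from 17.7 RPKM at Efcab2 and 13.0 RPKM at the Hjurp region to 6.51 RPKM, and the grey stretch continues from it without a step.

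The 15 densest regions included chromatin genes (Hjurp, Tlk2, Bicral, Ino80d), phosphatase subunits (Ppp2ca, Ppp1r12a) and signalling genes (Dyrk2, Cab39, Ihh). Efcab2 had 18.7, 18.2 and 18.6 RPKM with butyrate, against 16.7, 17.4 and 16.7 RPKM with vehicle. All butyrate libraries thus lay above all vehicle libraries, by 0.12 ± 0.05 (SE) on the scale of log2(RPKM + 1). By limma with Benjamini-Hochberg adjustment the adjusted p was 0.638. The Hjurp region had 12.5, 14.0 and 12.8 RPKM with butyrate, against 13.3, 13.2 and 11.9 RPKM with vehicle, and the groups overlapped. Tlk2 had 13.6, 13.1 and 12.1 RPKM with butyrate, against 11.5, 11.4 and 12.5 RPKM with vehicle, where the highest vehicle library lay above the lowest butyrate library. Top1, topoisomerase I, which relaxes DNA ahead of polymerases, had 13.0, 12.7 and 11.4 RPKM with butyrate, against 11.3, 11.7 and 11.3 RPKM with vehicle. Its groups overlapped as well. The kinase gene Dyrk2 averaged 11.5 ± 0.476 RPKM with butyrate and 11.4 ± 0.797 RPKM with vehicle (SD, n = 3 each), less than the spread within either group.

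The densest region without an annotated protein-coding TSS lay at chr17:46855415-46859300. The table assigns it to Bicral, a subunit gene of a SWI/SNF remodelling complex, at -25945 bp from its annotated start, and RefSeq places a predicted Bicral start inside the region. It had 10.9, 12.3 and 12.9 RPKM with butyrate, against 10.7, 9.62 and 10.7 RPKM with vehicle, and the groups did not overlap. Ino80d, a subunit of the INO80 remodelling complex, averaged 11.3 ± 0.938 RPKM with butyrate and 10.6 ± 0.619 RPKM with vehicle. Ppp2ca, the catalytic subunit of protein phosphatase 2A, averaged 10.8 ± 0.960 RPKM with butyrate and 10.9 ± 0.434 RPKM with vehicle. Ppp1r12a, which targets a phosphatase to myosin, averaged 11.02 ± 0.933 RPKM with butyrate and 10.6 ± 0.957 RPKM with vehicle. In these 3 regions the difference was smaller than the larger SD, whereas Cab39, a scaffold of the LKB1 kinase, ran lower with butyrate in every library. Cab39 had 9.82, 9.33 and 9.96 RPKM with butyrate, against 10.4, 11.7 and 10.7 RPKM with vehicle. The adjusted p by limma was 0.649.

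Among the last of the 15, Ube2n makes the enzyme that builds lysine-63-linked ubiquitin chains, Jund an AP-1 subunit, and Ihh the hedgehog ligand that the gut epithelium sends to the mesenchyme. Ube2n averaged 9.76 ± 0.722 RPKM with butyrate and 10.4 ± 0.185 RPKM with vehicle. Jund averaged 10.2 ± 1.01 RPKM with butyrate and 9.90 ± 0.399 RPKM with vehicle. Ihh averaged 9.41 ± 0.324 RPKM with butyrate and 10.2 ± 0.925 RPKM with vehicle, with overlapping groups in all 3 regions. Zfp335, a zinc-finger transcription factor, had 10.9, 10.4 and 10.4 RPKM with butyrate, against 10.3, 8.98 and 8.25 RPKM with vehicle. Its groups did not overlap, though the closest libraries of the groups nearly met. Bcl2l13, a BCL2-related protein of the outer mitochondrial membrane, had 11.5, 9.93 and 11.7 RPKM with butyrate, against 10.8, 8.80 and 10.02 RPKM with vehicle, and the groups overlapped.

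**Figure D2:**
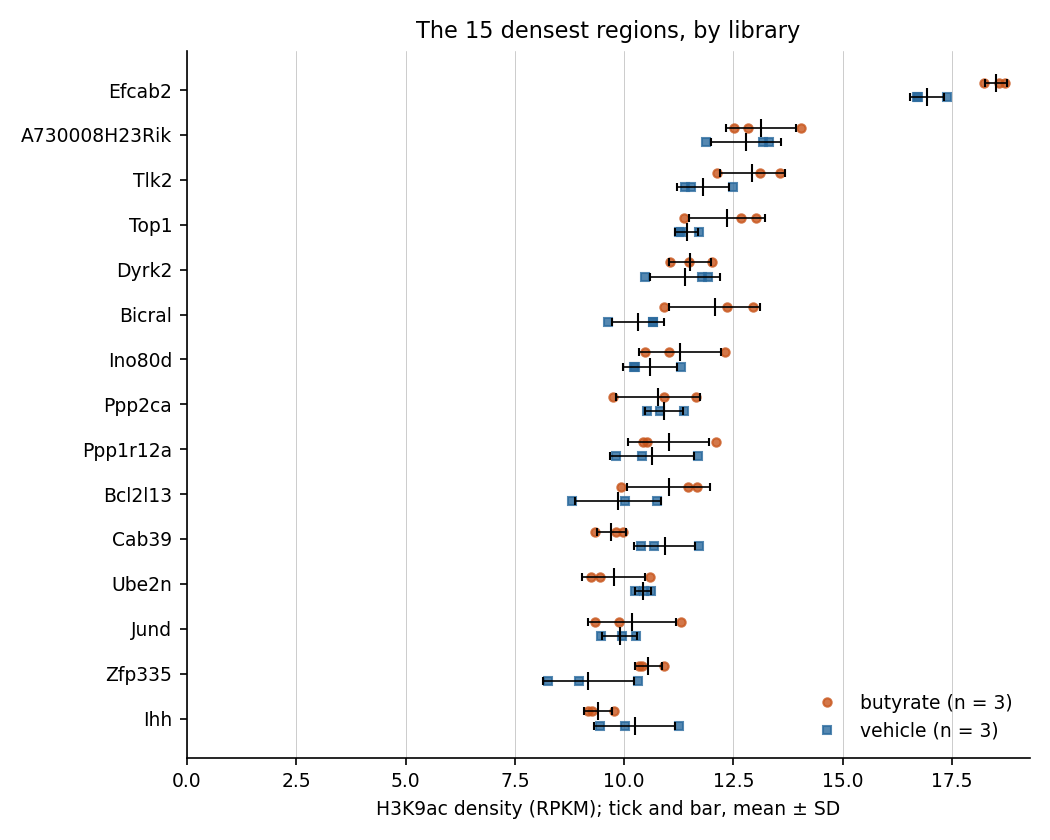
H3K9ac density in RPKM (x axis) of the 15 densest regions (rows, in order of rank), with 1 point per library, butyrate as orange circles above vehicle as blue squares, and the mean ± SD in black. Efcab2 lies apart at 16.7 to 18.7 RPKM in all 6 libraries, and most other rows overlap between treatments.

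Membership rests on the mean of the 6 libraries, so that overlap with each library's own ranking is partly built in. Ranked in a single library, 234, 229 and 246 members were among the 300 densest in the butyrate libraries, and 240, 235 and 240 in the vehicle libraries. In all 6 libraries, 128 members stayed among the 300 densest and 255 among the 600 densest. The lowest position of any member in any library was rank 1524. The median SD within groups was 0.0963 in members on the scale of log2(RPKM + 1), against 0.152 in all other regions under 5000 bp, 0.105 at ranks 301 to 1000 and 0.0823 in regions of 5000 bp or more. The median member had 349 reads per library and the median of the others 91.7, and at 349 reads counting error alone gives a coefficient of variation of 5.35%. The steadiest members were Ankrd17, an ankyrin repeat protein, with an SD of 0.0233, Cox7c, a cytochrome c oxidase subunit, with 0.0252, and Efcab2 with 0.0256, followed by the sorting nexin gene Snx3 and Zc3h4, a zinc-finger gene that restrains non-coding transcription. The most variable were Phf2, a histone demethylase, with an SD of 0.223, Chd3, a remodeller of the NuRD complex, and Fbxo4, an F-box protein, with 0.216 each, Pink1, a mitophagy kinase, with 0.209, and Arpp19, a phosphatase inhibitor, with 0.204. Phf2 had 7.67, 9.46 and 10.4 RPKM with butyrate, against 9.36, 7.70 and 6.41 RPKM with vehicle, so both groups spanned a wide range and overlapped.

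Nearly all members were promoters of protein-coding genes. A protein-coding TSS of GENCODE release M21 lay inside 288 of 300 members (96%, exact 95% interval 93.1 to 97.9%, which covers counting error only), against 6989 of 10678 other regions (65.5%). The share was also high just below the members, at 95.3% of the 700 regions of ranks 301 to 1000, and it was 4.91% from rank 10001 on. The authors' annotation, which describes the position of a region by a single class, put 156 members in introns, 66 in promoters, 42 in exons, 24 in 5′ untranslated regions and 3 between genes, with 9 in other classes. Among regions with a protein-coding TSS, the start lay within 500 bp of the centre in 66.3% of members and 70.8% of the others. Divergent start sites of different protein-coding genes within 1000 bp were found in 4.51% of members with a protein-coding TSS and in 7.74% of the other regions with one. Divergent starts where at least 1 gene of the pair is protein-coding were found in 15% of all members and 9.62% of all others. A GENCODE start of any kind lay in 97.7% of members and 68.6% of the others, so these shares rest on unlike bases. Among regions with such a start, the divergent ones were 45 of 293 members and 1027 of 7323 others.

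The 12 members without a protein-coding TSS were Bicral, 2610005L07Rik, Mir194-1, 6820431F20Rik, Bbc3, 1810026B05Rik, Kdm6b, Coq5, Pura, Zbtb38, Lmna and Zfp958. A non-coding or pseudogene start lay in 5 of them. RefSeq placed a predicted start in 4 others, at Bicral, Bbc3, a pro-apoptotic BCL2-family gene, Kdm6b, a histone H3 lysine 27 demethylase, and Pura, and a curated start at Zbtb38, a zinc-finger protein that binds methylated DNA. Only Coq5 and Lmna held no GENCODE or RefSeq start of any kind. The Coq5 region, 625 bp within the gene of a coenzyme Q methyltransferase, was the shortest member and rested on the fewest reads, 92.2 per library. The Lmna region lay in an intron of the gene for lamins A and C and had 5.93, 5.94 and 6.76 RPKM with butyrate, against 6.87, 6.98 and 7.28 RPKM with vehicle, without overlap between the groups. For 3 members the genome holds further copies of the region at 90% identity or more over at least 50% of its length: 7 for 2610005L07Rik, 4 for 6820431F20Rik and 1 for H2-K1. How reads from such copies were assigned is not given in the sources used here, so these levels are uncertain. The region named H2-L overlaps the TSS of H2-D1, a close relative of H2-K1.

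The members were rich in CpG. They had a median of 6.19 CpG per 100 bp, against 3.95 in the other regions, with 57.4% G and C against 52.2%. The regions next in density were similar, with 5.81 CpG per 100 bp and 57.5% G and C at ranks 301 to 1000. The ratio of observed to expected CpG had a median of 0.753 in members and 0.585 in the others. Among regions with a protein-coding TSS the gap was smaller, at 6.21 CpG per 100 bp in members and 4.67 in the others. The authors' annotation labels 105 members (35%) as CpG islands, against 12.5% of the others. Members were also longer than the others, with a median of 2201 bp against 1333 bp. The regions of ranks 301 to 1000 were close to them, with a median of 2092 bp. Other regions with a protein-coding TSS had a median of 1795 bp. The longest member, 4928 bp, lay at the kinase gene Dyrk1a. Repeats covered a median of 10.6% of a member and 10.9% of another region. Over all 10978 regions under 5000 bp, all from the same 6 libraries, density correlated with CpG density with a Spearman's rho of 0.68. Within the members rho was 0.09 (n = 300). The rule cuts the range of density among the members, so a lower rho within them is partly built in. Regions are not independent replicates, and GC content can itself alter how many reads a region yields; its part in the densities was not tested.

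**Figure D3:**
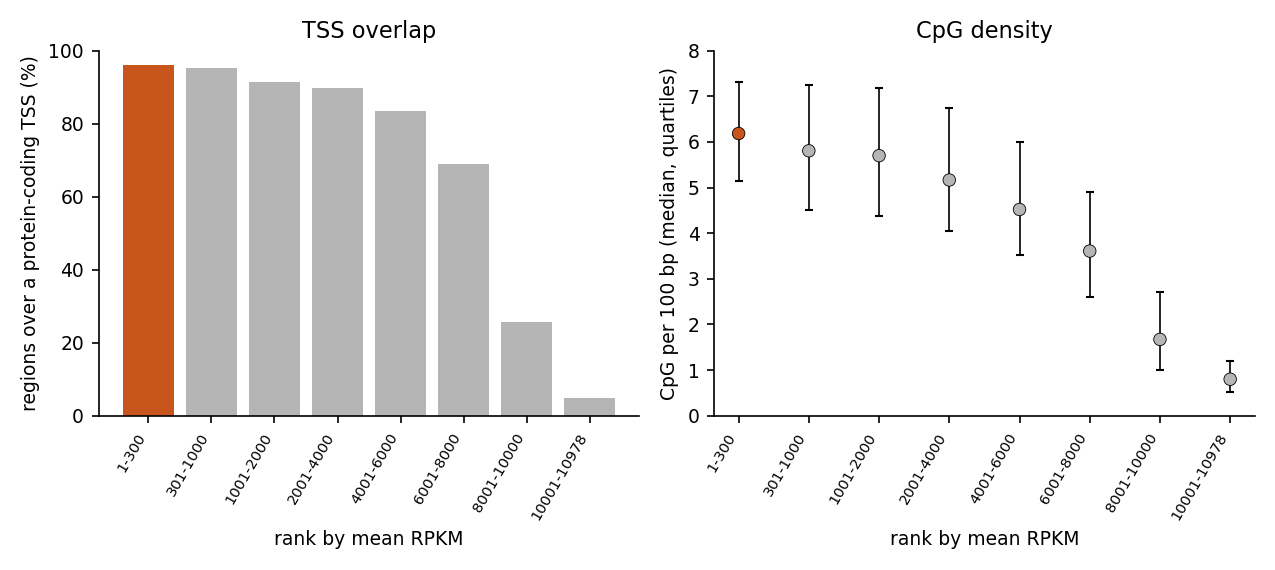
Left, the share of regions with a protein-coding TSS inside (y axis, percent) by class of rank (x axis). Right, the median number of CpG per 100 bp with quartiles, by the same classes. Orange marks the 300 densest, with 96% and 6.19, and both measures decline toward the weakest regions, at 4.91% and 0.80.

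The promoters of the members were searched for 14 short motifs of transcription factors. At least 1 RefSeq promoter window of 300 bases lay inside 218 members, 308 windows in all, and 6052 windows lay inside other regions. Windows in members had the GC box (GGGCGG), which SP and KLF factors bind, in 79.2%, against 67.5% of windows in other regions and 35.7% of all 32851 windows. The CRE (TGACGTCA), which CREB and ATF factors bind, was present in 8.77% of member windows, against 3.88% in other regions and 1.79% of all windows. Its short form (TGACG), which every CRE contains, was present in 45.1%, 36.7% and 20.8%. The CCAAT box (CCAAT), the site of NF-Y, was less frequent in member windows, at 20.8%, than in other regions at 32.8% and in all windows at 37.4%. The ETS core (CCGGAA) was present in 33.1%, 34.6% and 14.9%, the NRF1 motif in 1.62%, 2.76% and 0.971%, and the YY1 motif in 3.25%, 2.69% and 0.852%. The E-box (CACGTG), which can overlap a short CRE, was present in 6.49%, 9.67% and 7.15%. The GATA, CDX, AP-1, TATA box and HNF4 motifs were less frequent in member windows than in other regions and in all windows. The CArG box was not. The GATA motif, with letters AGATAA, was present in 3.25% of member windows, 5.15% of those in other regions and 11.2% of all windows. CDX (TTTATNG) was present in 5.20%, 5.59% and 10.9%, AP-1 (TGANTCA) in 2.60%, 4.35% and 7.81%, the TATA box (TATAAA) in 3.90%, 6.02% and 13.6%, and the CArG box in 1.95%, 1.16% and 1.63%. HNF4 (CAAAGTCCA) had 0 matches in 308 member windows, against 0.463% in other regions. Both strands were searched, a match describes letters alone, and no share was corrected for base composition. A region can hold more than 1 window, so windows are not independent of each other.

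Several gene groups had no member, where 2.73% of all regions under 5000 bp were members. Of 88 regions of cytosolic ribosomal protein genes, 0 were members, with the densest at rank 452. There were also 0 members among 73 regions of mitochondrial ribosomal proteins, 61 of chaperones and 35 of RNA polymerase II and elongation factors. Their densest regions lay at ranks 340, 555 and 341, in that order. The 20 regions of glycolytic enzymes and 7 of nuclear-body long non-coding RNAs held 0 as well, with the densest at ranks 1980 and 4459. Enterocyte and epithelial genes had 0 members among 36 regions, with the densest at rank 404. Intestinal transcription factors had 0 among 36, with the densest at rank 825. In groups of 36 regions or fewer, the glycolytic and nuclear-body groups among them, a count of 0 lies near that share. In the larger groups the same share would also give only a few members. The limit on length left some dense regions of this kind out. Regions of 5000 bp or more would have supplied 18 of the 300 densest. Among them were Cldn3, a claudin, with 9.59 RPKM, and the actin genes Actg1 with 9.50 and Actb with 8.36. Epcam, an epithelial adhesion protein, had 7.83, the long non-coding RNA gene Neat1 7.81, and Cdx2, the intestinal homeobox factor, 6.96. The immediate early genes Zfp36, Jun, Junb and Fos were also among them.

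Several regulatory groups did have members. Ubiquitin and proteasome genes had 6 of 66 regions among the members (9.09%, against the same 2.73%), among them the conjugating enzymes Ube2n, Ube2d2a, Ube2d3, Ube2j2 and Ube2j1, whose region the table names 4933421O10Rik. Immediate early genes had 5 of 42 (11.9%), namely Jund, Zfp36l2, which destabilises AU-rich mRNAs, Ier5, the Krüppel-like factor Klf6 and Maff, a small MAF factor. Histone deacetylase and acetyltransferase genes had 2 of 26 (7.69%), the acetyltransferase Ep300 and the corepressor scaffold Sin3b. Splicing genes had 3 of 70 (4.29%), Srsf5, Hnrnph3 and Tra2a, and respiratory chain genes 3 of 93 (3.23%), Cox7c, Cyc1 and Atp5g3. Other groups lay below the share of all regions. Zinc-finger genes named Zfp had 6 of 312 (1.92%) and microRNA and small RNA genes 3 of 221 (1.36%). Histone genes had 1 of 51 (1.96%), the linker histone gene H1f0, and translation factors 1 of 54 (1.85%). Cytoskeletal genes (Arpc5), clock genes (Npas2) and cell cycle genes (Ccnl1) had 1 of 20 each (5%). The members of 2 small RNA genes, Mir5620 and Mir1893, also cover protein-coding starts, of Clcn4 and Epc1.

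Other families were picked after the names of the members were seen, so that their counts are descriptions of that choice. They held 5 of 13 regions of CDC-like, HIPK and DYRK kinases (Dyrk2, Dyrk1a, Hipk3, Clk3, Clk4), which phosphorylate splicing and transcription factors, and 4 of 20 regions of histone lysine demethylases (Kdm5b, Kdm6b, Kdm3b, Kdm6a). Endosomal sorting genes had 8 of 72, F-box genes 7 of 42, of which 1 region is named Trip12, and RING, HECT and cullin ligase genes 10 of 88. Tight junction and adhesion genes had 4 of 15: Ocln, a tight junction protein, with 8.78 RPKM, Cldn23 with 8.68, Cxadr, the coxsackievirus and adenovirus receptor, with 7.85, and Nectin2 with 7.41. Pairs of members within 100 kb of each other numbered 8, among them the tumour necrosis factor receptor genes Ltbr and Tnfrsf1a, Chd3 and Kdm6b, and H2-K1 and Rxrb. No gene name had 2 members. A further region was listed for 51 member genes, 65 regions in all, with a median of 1.34 RPKM.

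As a group the members held a slightly larger part of the reads with butyrate. They covered 3.68% of the bases in regions and held 7.82, 7.84 and 7.94% of the reads in regions with butyrate, against 7.78, 7.71 and 7.63% with vehicle. The butyrate libraries averaged 7.87 ± 0.0598% and the vehicle libraries 7.71 ± 0.0715% (SD, n = 3 each), and the groups did not overlap. The level of the median member did not separate them, with 7.35, 7.43 and 7.48 RPKM with butyrate, against 7.35, 7.33 and 7.20 RPKM with vehicle. Butyrate against vehicle gave a log2 fold change above 0 in 184 members (61.3%), where it did so in 50.0% of all regions tested, and the median was 0.03 in members and 0.00 over all regions. The size of this shift depended on how the regions were ranked. With the 300 densest regions of the vehicle libraries alone the median was 0.00 with 50.3% above 0. With those of the butyrate libraries alone it was 0.06 with 72.3% above 0. Ranking on a single group favours regions that are high in that group, so the direction of this difference is built in. With the regions ranked by reads without division by length the median was 0.00 and 49.7% were above 0. For the 300 members themselves the share above 0 was 53.7% without butyrate library S6 and 53.3% without vehicle library S3. The deposited scaling makes the libraries alike over all regions, so a gain or loss shared by all regions cannot be seen, and in bulk samples a changed number of cells of a type and a changed level per cell cannot be told apart.

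No single member passed an adjusted p of 0.05 in the fits to all 6 libraries. By limma on log2(RPKM + 1), 0 of 300 members and 0 of 10529 regions (0.00%) had a Benjamini-Hochberg adjusted p under 0.05, and the smallest adjusted p of a member was 0.486. An unadjusted p under 0.05 was found for 34 members (11.3%), against 7.27% of all regions, but in limma without trend and robust variances for 9 members (3.00%), against 7.51%. In the fit with both, 23 of the 300 were higher with butyrate, against 353 of 10529 regions (3.35%). The other 11 of the 300 were lower, against 412 of 10529 regions (3.91%), so the lower count lies near the share of all regions. In voom on reads recovered from the RPKM values, 0 members were called at an adjusted p of 0.05, against 16 of 11251 regions (0.142%), and 33 members had an unadjusted p under 0.05, against 9.49% of all regions. At an adjusted p of 0.1 voom called Arf5 and Mef2a, both with 0.097, where it called 0.373% of all regions. In the authors' deposited table, 28 regions (0.249%) had an FDR under 0.1. Of these, 2 were members, Arf5 with an FDR of 0.0539 and Prdm2 with 0.0682. The authors give the status of both as Up. The groups did not overlap in 55 members (18.3%), against 13.0% of all regions: butyrate lay above vehicle in 36 members, with 6.11% of all regions, and below it in 19, with 6.85%. All differences were small. The ratio of group means ranged from 0.803 to 1.30, exceeded 1.2-fold upward in 7 members and downward in 2, and reached 1.5-fold in none of the 300.

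**Figure D4:**
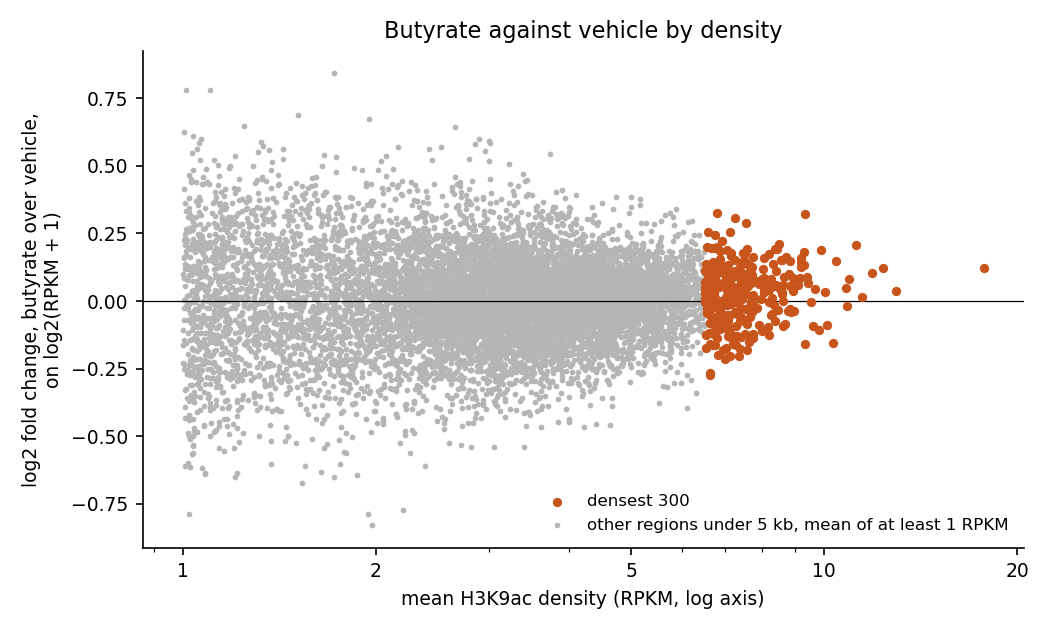
Log2 fold change of butyrate over vehicle on log2(RPKM + 1) (y axis) against mean density in RPKM (x axis, log) for regions under 5000 bp with a mean of at least 1 RPKM. The 300 members in orange lie between -0.27 and 0.33, with 184 above 0 and 116 below.

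Of the members with the smallest p, those that ran higher with butyrate were led by Prdm2, a PR-domain protein of the family of H3K9 methyltransferases. Prdm2 had 10.96, 10.7 and 9.77 RPKM with butyrate, against 8.17, 8.13 and 8.24 RPKM with vehicle. Its groups lay well apart, by 0.32 ± 0.07 (SE) in log2 fold change, with an adjusted p of 0.486 by limma. Arf5, a small GTPase of Golgi traffic, had 7.51, 7.91 and 7.66 RPKM with butyrate, against 5.55, 6.26 and 5.99 RPKM with vehicle. Every butyrate library exceeded every vehicle library, and the log2 fold change of 0.33 ± 0.07 was the highest of the 300. Khnyn, a partner of the antiviral zinc-finger protein in human cells, had 7.67, 7.68 and 9.13 RPKM with butyrate, against 6.62, 6.55 and 5.96 RPKM with vehicle. The groups did not overlap, and 1 butyrate library lay well above the other two. Mef2a, a MADS-box transcription factor, had 8.395, 8.11 and 8.64 RPKM with butyrate, against 6.25, 6.16 and 7.70 RPKM with vehicle, where 1 vehicle library lay near the butyrate values. Without that library, S3, voom gave Mef2a an adjusted p of 0.046. Ap3b1, a subunit of the AP-3 adaptor, averaged 7.26 ± 0.393 RPKM with butyrate and 5.93 ± 0.413 RPKM with vehicle. Fam204a averaged 7.85 ± 0.492 RPKM with butyrate and 6.42 ± 0.524 RPKM with vehicle, and Ric1, part of an exchange factor for RAB6, averaged 7.41 ± 0.728 RPKM with butyrate and 6.10 ± 0.234 RPKM with vehicle. In these 3 regions, as at Bicral, the groups did not overlap, and the adjusted p by limma was 0.572 to 0.575.

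Those that ran lower with butyrate were led by Zbtb38. It had 6.01, 5.93 and 5.798 RPKM with butyrate, against 7.55, 6.95 and 7.59 RPKM with vehicle, a log2 fold change of -0.27 ± 0.07 (SE) with an adjusted p of 0.492 by limma. Both groups were narrow and lay apart. Tmem246, which RefSeq lists as Pgap4, an enzyme that modifies glycosylphosphatidylinositol anchors, had 6.58, 5.44 and 5.74 RPKM with butyrate, against 7.18, 8.15 and 6.67 RPKM with vehicle. The groups nearly touched. Zcchc7, a zinc-knuckle protein of nuclear RNA decay, averaged 6.28 ± 0.340 RPKM with butyrate and 7.37 ± 0.435 RPKM with vehicle. Rad54l2, an ATPase of the SNF2 family, averaged 7.05 ± 0.411 RPKM with butyrate and 8.13 ± 0.321 RPKM with vehicle. Rnpep, an aminopeptidase, averaged 6.77 ± 0.215 RPKM with butyrate and 7.97 ± 0.899 RPKM with vehicle, and none of these 3 overlapped. At Cyc1, cytochrome c1, and at Ankrd11, a chromatin regulator, the groups overlapped, with 6.39 ± 0.249 RPKM with butyrate and 7.61 ± 0.966 RPKM with vehicle for Cyc1, and 6.55 ± 0.710 RPKM with butyrate and 7.70 ± 0.703 RPKM with vehicle for Ankrd11.

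The promoter windows of Arf5 (chr6:28423354-28423653, plus strand) and Zbtb38 (chr9:96719801-96720100, minus strand) are shown as those of members that ran in opposite directions, from RefSeq on GRCm38.p6 and with the same motifs in capitals.
Arf5: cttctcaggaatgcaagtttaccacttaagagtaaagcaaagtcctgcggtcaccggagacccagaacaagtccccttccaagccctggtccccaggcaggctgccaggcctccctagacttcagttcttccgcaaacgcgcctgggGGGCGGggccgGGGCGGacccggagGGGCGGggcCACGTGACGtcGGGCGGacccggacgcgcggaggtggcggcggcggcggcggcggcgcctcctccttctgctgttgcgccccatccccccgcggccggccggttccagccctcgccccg
Zbtb38: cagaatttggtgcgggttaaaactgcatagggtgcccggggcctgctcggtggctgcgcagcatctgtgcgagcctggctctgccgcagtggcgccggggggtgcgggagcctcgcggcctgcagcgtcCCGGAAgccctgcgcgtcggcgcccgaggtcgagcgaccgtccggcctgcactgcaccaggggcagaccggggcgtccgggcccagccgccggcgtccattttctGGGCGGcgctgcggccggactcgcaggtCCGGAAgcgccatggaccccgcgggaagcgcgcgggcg
Both were CpG-rich, with 32 CpG in the Arf5 window and 41 in the Zbtb38 window. Arf5 held 4 GC boxes, 1 short CRE and 1 E-box, and Zbtb38 held 1 GC box and 2 ETS cores.

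**Figure D5:**
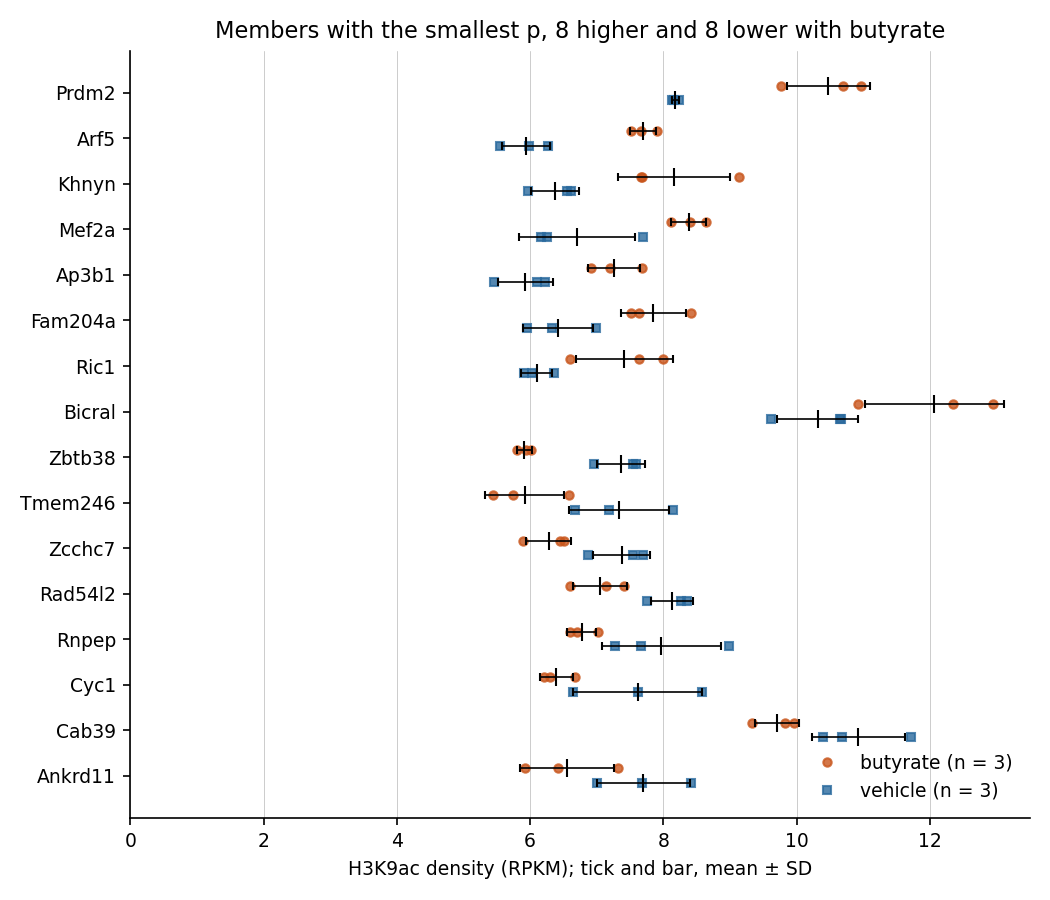
H3K9ac density in RPKM (x axis) of the 8 members with the smallest p that ran higher with butyrate (upper rows, from Prdm2) and the 8 that ran lower (lower rows, from Zbtb38), with 1 point per library, butyrate as orange circles above vehicle as blue squares, and the mean ± SD in black. The groups lie apart in 14 of the 16 rows and overlap at Cyc1 and Ankrd11, and no row passed an adjusted p of 0.05.

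Within the gene groups the contrast went in both directions. In the ubiquitin and proteasome group 4 of 6 members had a log2 fold change above 0, with Ube2j2 having 6.86, 6.95 and 7.76 RPKM with butyrate, against 6.26, 5.93 and 6.22 RPKM with vehicle. Its groups did not overlap, and the adjusted p by limma was 0.638. In the immediate early group 1 of 5 was above 0. Zfp36l2 had 9.52, 8.06 and 8.75 RPKM with butyrate, against 9.62, 10.2 and 9.85 RPKM with vehicle, lower in every library though closely so in 1 of them. Klf6 averaged 7.56 ± 0.516 RPKM with butyrate and 7.81 ± 0.174 RPKM with vehicle, and Ier5 averaged 8.19 ± 0.380 RPKM with butyrate and 8.24 ± 0.864 RPKM with vehicle, within the spread of each gene. Both members from the list of histone deacetylase and acetyltransferase genes were above 0. Ep300 had 7.42, 7.53 and 8.15 RPKM with butyrate, against 6.75, 7.18 and 6.57 RPKM with vehicle, without overlap and with an adjusted p of 0.703. Sin3b averaged 7.27 ± 1.01 RPKM with butyrate and 6.54 ± 0.908 RPKM with vehicle, with overlap. H1f0, a linker histone gene, averaged 7.31 ± 0.141 RPKM with butyrate and 7.37 ± 0.544 RPKM with vehicle. All 3 splicing members were above 0 and overlapped between the groups, and of the 6 Zfp members 4 were above 0. The histone demethylase members were above 0 in 1 of 4 and the adhesion members in 1 of 4. None of these members passed an adjusted p of 0.05.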

How the data were processed

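H3K9ac chromatin immunoprecipitation was sequenced in 3 butyrate and 3 vehicle libraries of ileal epithelial cells, with paired-end reads of 100 bp per the labels' protocols. Per the submitters' processing notes, STAR, Picard, HOMER and edgeR were used with mm10; how regions were called and their ends set is not given in the sources used here, and density depends on it. The deposited RPKM values are scaled by the authors to an effective library size. The deposited CPM values are the authors' group means and were not used here. The authors' deposited log2 fold change, p-value and FDR per region are quoted only where they are named as theirs. Column names gave the group of a library and not its sample.

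The members, gene lists and families were chosen with earlier results of these data known. Butyrate was compared with vehicle in R 4.3.3 by limma, version 3.58.1, with an intensity trend and robust variances, on log2(RPKM + 1) of the 10529 regions with a mean of at least 1 RPKM, which all 300 members passed. A pseudocount understates the fold change of weak regions. Reads recovered as RPKM times length were whole for 100% of values (tolerance 0.01 reads) and were fitted with voom on all 11251 regions, where it called 16. Both fits were also run on simulated counts with changes of at least 1.5-fold, larger than in any member. The outcome is not reported here and does not bear on changes as small as those of the members. Start sites came from GENCODE M21 and RefSeq, sequence from GRCm38.p6, and further copies from minimap2 (version 2.31-r1302). Promoter windows and microRNAs are RefSeq's. The genes named are the 15 densest, those nearest the limit, the extremes in length and SD, the 8 smallest p in each direction, the densest without a protein-coding TSS and the densest of each list; genes of the added families, the Lmna region, neighbouring pairs and the members of the closing observations were chosen after their values were seen. Some genes that the rule names are not reported here. Alternatives covered pseudocount, filter, scaling, model, threshold, left-out libraries and the ranking rule.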

Additional observations from a re-analysis of the deposited data

How the results depend on the processing

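No paired analysis was possible because the columns carry no replicate number of the labels. The count of members called was 0 under every alternative pseudocount, filter, scaling, model and threshold run with limma, and leaving out each library gave 0; voom gave 0 with all libraries and 0 to 1 when each was left out, the 1 being Mef2a without vehicle library S3. The median log2 fold change of the members stayed above 0 and was 0.0147 to 0.0432 when each library was left out of limma and 0.0142 to 0.0541 with voom; the values without butyrate library S6 were 0.0160 and 0.0153, those without vehicle library S3 0.0147 and 0.0142, and the value without vehicle library S1 was 0.0541 with voom. The cause was not tested. The number of members with an unadjusted p under 0.05 was 34 with trend and robust variances (11.3%, against 7.27% of all regions) and 9 without both (3.00%, against 7.51%). Ranking by reads per region in place of density kept 121 of the 300, and the 150 highest were by construction 150 of them; with any GENCODE or RefSeq start the share with a start was 99.3%. The 16 members named for the contrast kept their direction in all 352 alternative fits, and 1 of those fits, again Mef2a, passed the threshold. These members were picked by the smallest p in the same libraries, so a kept direction is largely built in and is not support. The voom fits that left out a library and the count of any start were chosen after seeing the data. The number of reads limits the precision most for the shortest member, Coq5.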

Other observations

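Few members lay on the X chromosome, with 2 of its 209 regions under 5000 bp (0.957%), while chromosome 1 had 24 of 644 (3.73%) and chromosome 11 had 28 of 980 (2.86%). Several members have a name in the table that is not that of the protein-coding gene whose start they cover: Gm16796 lies at Pfdn4, a prefoldin subunit, with 8.80 RPKM, Atp6v0c-ps2 at Atp6v0c, a proton pump subunit, with 7.58 RPKM, and 4833438C02Rik at Nfkb2, an NF-κB subunit, with 6.69 RPKM. Gm16796 had 8.99, 9.22 and 9.21 RPKM with butyrate, against 8.399, 8.85 and 8.16 RPKM with vehicle, without overlap. At 4833438C02Rik 1 butyrate library stood out, with 6.17, 8.05 and 5.96 RPKM with butyrate, against 7.23, 6.68 and 6.03 RPKM with vehicle. Ltbr, the lymphotoxin beta receptor gene, held the lowest value of any member in any library, 4.85 RPKM in butyrate library S5, beside 7.46 and 6.64 RPKM in the other butyrate libraries and 7.35, 6.79 and 7.18 RPKM with vehicle. The neighbouring member at Tnfrsf1a had 7.00, 6.89 and 7.30 RPKM with butyrate, against 6.49, 7.04 and 7.72 RPKM with vehicle, and overlapped.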
